A study of Mus musculus with 28 samples.

Results

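DNA methylation in mouse embryonic stem cells (ESCs) is written by the DNA methyltransferase genes Dnmt1, Dnmt3a and Dnmt3b, with the cofactor genes Dnmt3l and Uhrf1. These 5 genes were taken by symbol from the 17342 genes of the deposited expression table. No cut on their values was used, but earlier results of these data were known when they were chosen. All 5 were among the 17338 genes tested. They were followed over 7 RNA-seq libraries of V6.5 ESCs, a male line of mixed 129/C57BL/6 strain, in medium with serum and LIF, a cytokine that supports self-renewal. Every library came from cells kept on feeder fibroblasts, separated from the feeders by pre-plating and left on gelatin overnight. The groups were Tet2-WT (n = 3 independent ESCs, Tet2 wildtype), Tet2-Mut (n = 2 clones, Tet2 mutant) and Tet2-KO (n = 2 clones, Tet2 knockout). The labels do not describe the mutation or the deleted part of Tet2, an enzyme gene whose product oxidizes 5-methylcytosine. The series asks about Tet2 functions that do not need catalysis, so the clones of each genotype were set against Tet2-WT and against each other. Of its 28 samples, 3 bisulfite and 18 CUT&Tag samples were not analysed here, so the text concerns transcripts and not methylation itself.

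Dnmt1 copies methylation onto the new strand after replication, and Uhrf1 brings it to hemimethylated DNA. Dnmt3a and Dnmt3b place methyl groups on unmethylated CpGs. Dnmt3l has no catalytic activity of its own, binds Dnmt3a and Dnmt3b and stimulates them, and is abundant in ESCs and in germ cells. In ESCs, which can survive without methyltransferases, Dnmt3b is known to rise when cells leave the naive state.

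The promoter windows below run from 250 bases before to 50 bases after an annotated transcript start of each gene. They are from RefSeq on GRCm38.p6 (mm10), which held entries for all 5 genes, with between 1 and 3 windows each. The window with the most CpGs is printed for each gene, 5′ to 3′ on the gene's strand. Capitals mark 2 motifs searched on both strands, the E2F motif (TTTCCCGC, TTTCGCGC, TTTGCCGC or TTTGGCGC) and CCAAT. The printed windows are chr9:20952574-20952873 on the minus strand for Dnmt1, and, on the plus strand, chr17:56304063-56304362 for Uhrf1, chr12:3806910-3807209 for Dnmt3a, chr2:153649199-153649498 for Dnmt3b and chr10:78042037-78042336 for Dnmt3l.
Dnmt1: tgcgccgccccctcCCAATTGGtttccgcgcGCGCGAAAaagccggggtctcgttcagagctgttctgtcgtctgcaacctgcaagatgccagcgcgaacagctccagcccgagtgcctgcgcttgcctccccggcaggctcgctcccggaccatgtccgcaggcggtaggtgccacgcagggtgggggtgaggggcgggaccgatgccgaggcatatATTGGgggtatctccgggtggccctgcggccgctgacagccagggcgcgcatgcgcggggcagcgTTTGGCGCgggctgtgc
Uhrf1: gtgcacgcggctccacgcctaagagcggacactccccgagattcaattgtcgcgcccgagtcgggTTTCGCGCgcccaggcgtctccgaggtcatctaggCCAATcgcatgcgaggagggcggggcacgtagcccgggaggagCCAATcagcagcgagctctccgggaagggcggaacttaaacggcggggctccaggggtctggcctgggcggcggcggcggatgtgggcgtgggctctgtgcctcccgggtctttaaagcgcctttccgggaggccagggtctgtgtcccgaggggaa
Dnmt3a: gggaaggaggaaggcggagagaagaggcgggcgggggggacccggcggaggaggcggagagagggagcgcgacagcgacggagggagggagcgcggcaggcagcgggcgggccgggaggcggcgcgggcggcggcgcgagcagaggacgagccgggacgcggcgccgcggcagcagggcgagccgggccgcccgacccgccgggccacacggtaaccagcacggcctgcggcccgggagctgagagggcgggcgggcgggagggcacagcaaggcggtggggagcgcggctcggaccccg
Dnmt3b: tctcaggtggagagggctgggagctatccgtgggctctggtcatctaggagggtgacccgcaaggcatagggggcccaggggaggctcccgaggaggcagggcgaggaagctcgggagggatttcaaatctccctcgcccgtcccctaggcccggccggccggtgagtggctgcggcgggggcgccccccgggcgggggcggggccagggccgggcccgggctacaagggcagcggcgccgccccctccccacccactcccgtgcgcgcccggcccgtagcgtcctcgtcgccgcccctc
Dnmt3l: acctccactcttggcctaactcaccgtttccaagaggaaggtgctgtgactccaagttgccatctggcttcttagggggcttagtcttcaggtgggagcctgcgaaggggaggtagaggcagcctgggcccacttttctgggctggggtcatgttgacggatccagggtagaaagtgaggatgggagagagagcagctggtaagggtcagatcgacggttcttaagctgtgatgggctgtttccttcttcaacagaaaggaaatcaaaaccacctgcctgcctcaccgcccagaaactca

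The Dnmt1 window held 2 E2F motifs and 3 CCAAT motifs, of which 2 overlap as a palindrome. The Uhrf1 window held 1 E2F motif and 2 CCAAT motifs. No window of Dnmt3a, Dnmt3b or Dnmt3l held either motif. Over all 32851 RefSeq windows of this length, 2.26% held an E2F motif and 37.4% held CCAAT. The Dnmt3l window had 6 CpGs, against a median of 7 over all windows (quartiles 3 and 20). The printed windows of Dnmt1 (33 CpGs), Uhrf1 (33), Dnmt3a (47) and Dnmt3b (30) all lay above the upper quartile. They were picked for the most CpGs, which favours a high rank. The windows not printed held 2 and 12 CpGs for Dnmt1, 12 for Uhrf1, 46 and 18 for Dnmt3a, and 4 and 3 for Dnmt3l. The GC box GGGCGG, found in 35.7% of all windows on either strand, occurred 7 times in the Dnmt3a window, 4 times in that of Dnmt3b, 3 times in that of Uhrf1, 2 times in that of Dnmt1 and 1 time in that of Dnmt3l. Counts per gene do not tell which start was used, and a motif match is a description of letters.

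**Figure D1:**
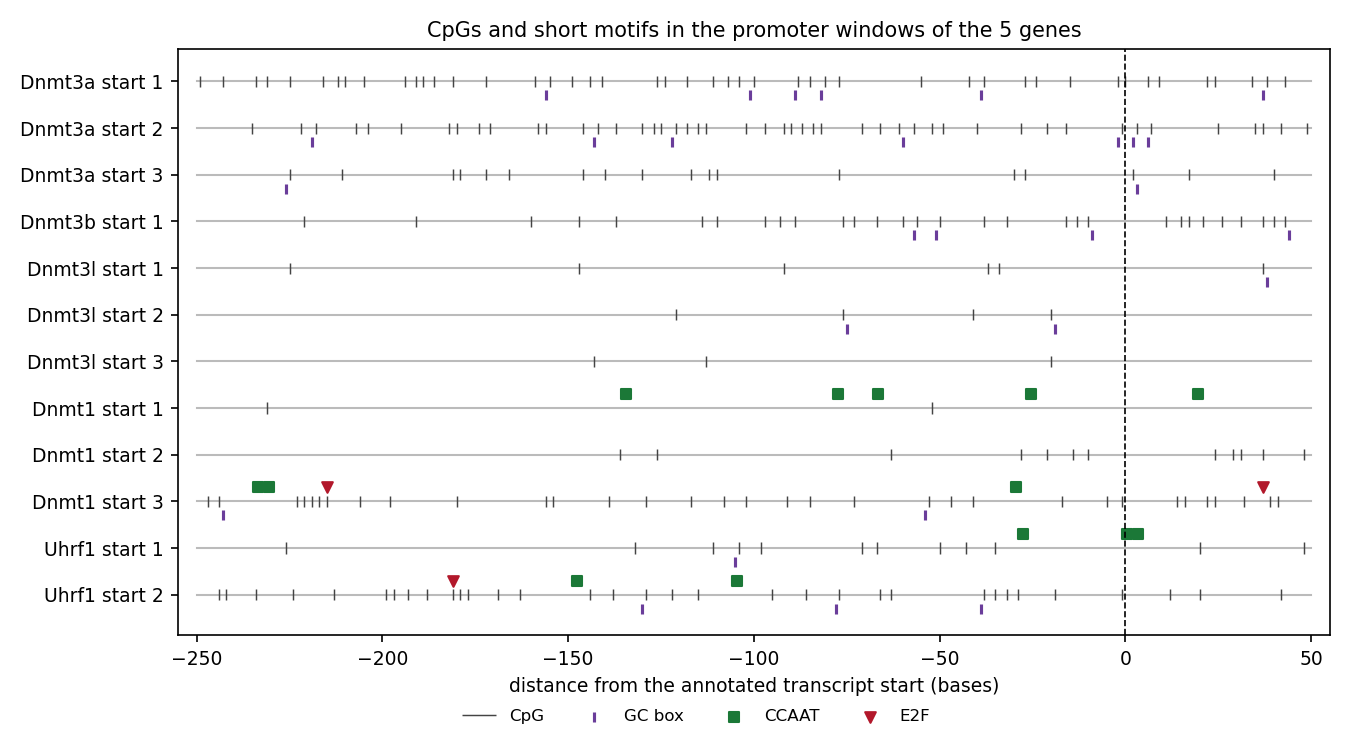
Promoter windows of the 5 genes by distance in bases from the annotated transcript start (dashed line), with 1 row per annotated start. Grey ticks are CpGs, red triangles E2F motifs, green squares CCAAT motifs and purple ticks GC boxes; E2F motifs appear in 1 window of Dnmt1 and 1 of Uhrf1, and the Dnmt3l rows hold between 3 and 6 CpGs.

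Levels are normalized counts, the reads of a gene divided by the size factor of its library, and differences are log2 fold changes of the normalized count + 1, called at a limma adjusted p under 0.05. The targeted gene was read first. Tet2 had 10343, 10244 and 12074 normalized counts in Tet2-WT replicates 1, 2 and 3, 9992 and 13181 in the Tet2-Mut clones, and 4624 and 5206 in the Tet2-KO clones. Its level in Tet2-KO was 45.1% of the Tet2-WT mean (log2 fold change -1.15 ± 0.12 SE, limma adjusted p = 0.00522), so transcript was still counted there. Library totals were 41.9 to 58.5 M recovered reads. The 12 ESC markers summed to between 342690 and 349260 normalized counts in Tet2-WT, 332470 and 345710 in Tet2-Mut, and 289790 and 344430 in Tet2-KO. Of the 20 fibroblast markers, 18 were in the table, none of them at 0 in any library, and Dcn and Lum were not in it. The 18 summed to between 60399 and 64752 in Tet2-WT, 67432 and 52942 in Tet2-Mut, and 91009 and 72598 in Tet2-KO. Fn1 gave most of each sum (38669 to 57216). Without it the other 17 summed to 16446 to 16585 in Tet2-WT, 14923 and 14273 in Tet2-Mut, and 33793 and 22752 in Tet2-KO.

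The genes differed in opposite directions. Dnmt3b rose in Tet2-KO to a mean of 223% of Tet2-WT, Dnmt3a rose in Tet2-Mut, and Dnmt3l and Uhrf1 fell in Tet2-Mut. In Tet2-KO against Tet2-WT the test called 1 of the 5 genes, where it called 5.91% of all genes (3.0% higher, 2.91% lower). In Tet2-Mut against Tet2-WT it called 3 of 5, 1 higher and 2 lower, against 3.43% of all genes (1.44% higher, 1.98% lower). In Tet2-KO against Tet2-Mut it called 1 of 5, higher, against 6.19% (2.64% higher, 3.55% lower). At an unadjusted p under 0.05 the counts were 5, 4 and 1 of 5, against 23.2%, 21.1% and 20.2% of all genes. The 3 calls in Tet2-Mut did not survive a prior that ignores the mean expression (limma adjusted p = 0.167 for Dnmt3a, 0.170 for Dnmt3l and 0.173 for Uhrf1). Dnmt3a and Dnmt3l also passed in Tet2-KO by DESeq2 (adjusted p = 0.0247 and 0.00580) and by limma on the 5 libraries of that comparison alone (0.0307 and 0.00369). Both comparisons with Tet2-WT use the same 3 Tet2-WT libraries, so they are not independent. For each of the 5 genes the values of the 4 clones did not overlap those of Tet2-WT, higher for Dnmt3a and Dnmt3b and lower for Dnmt1, Dnmt3l and Uhrf1, as was so for 17.7% of all genes (8.83% higher, 8.91% lower).

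**Figure D2:**
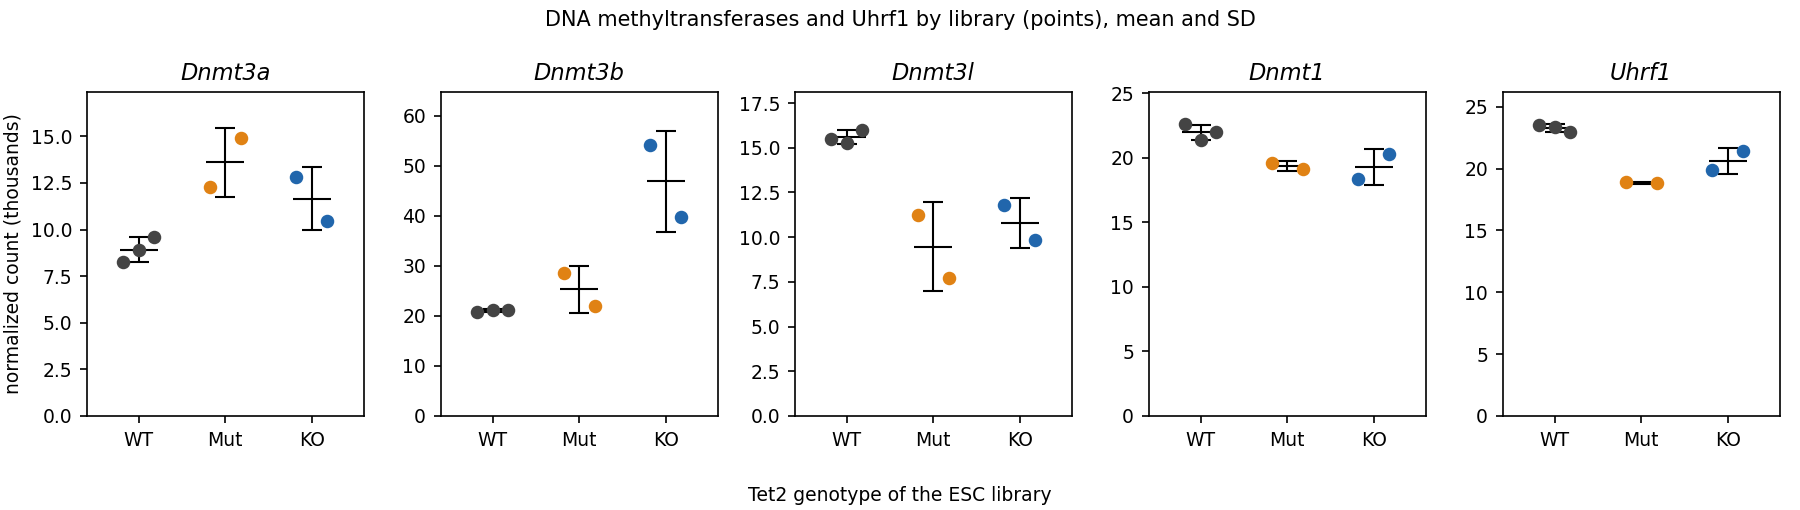
Normalized counts (axis in units of 1000) of the 5 genes in each of 7 libraries (points), with the group mean and SD (bars), by Tet2 genotype; axes start at 0 and differ between genes. The Tet2-KO points of Dnmt3b, at 54040 and 39689, stand above the 5 others, and in each panel the Tet2-WT points do not overlap those of the 4 clones.

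Dnmt3b, a de novo enzyme, differed in Tet2-KO from both other genotypes. It had 20723, 21181 and 21243 normalized counts in Tet2-WT, 28625 and 21915 in Tet2-Mut, and 54040 and 39689 in Tet2-KO. Tet2-WT libraries lay within a narrow band, both Tet2-KO clones lay above every other library, and Tet2-Mut replicate 2 was close to Tet2-WT. The means were 21049 ± 284 (SD, n = 3), 25270 ± 4745 (SD, n = 2) and 46864 ± 10148 (SD, n = 2). Dnmt3b rose in Tet2-KO against Tet2-WT by a log2 fold change of 1.14 (95% interval 0.83 to 1.45, limma adjusted p = 0.00564). It was also higher in Tet2-KO than in Tet2-Mut, by 0.89 (0.55 to 1.23, limma adjusted p = 0.0111). In Tet2-Mut against Tet2-WT its log2 fold change of 0.25 did not pass (-0.06 to 0.56, limma adjusted p = 0.334). Both calls stayed with any 1 of the 7 libraries left out, with log2 fold changes of 0.92 to 1.36 and 0.66 to 1.11. Both were lost with a prior that ignores the mean (limma adjusted p = 0.0836 and 0.0994), and the second also when only its own 4 libraries were fitted (0.111). Among the 2320 genes with a mean of at least 5000 normalized counts, Dnmt3b had the second highest fold change in Tet2-KO against Tet2-WT, a rank read after its value was seen.

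Dnmt3a, the other de novo enzyme, had 8280, 8916 and 9582 normalized counts in Tet2-WT, 12296 and 14903 in Tet2-Mut, and 12846 and 10455 in Tet2-KO. Every clone was above every Tet2-WT library, while the ranges of the Tet2-Mut and Tet2-KO clones overlapped. The means were 8926 ± 651 (SD, n = 3), 13599 ± 1843 (SD, n = 2) and 11650 ± 1691 (SD, n = 2). Dnmt3a rose in Tet2-Mut by a log2 fold change of 0.60 (0.35 to 0.86, limma adjusted p = 0.0313). In Tet2-KO the log2 fold change of 0.38 did not pass (0.12 to 0.63, limma adjusted p = 0.0825), and the difference between Tet2-KO and Tet2-Mut was -0.22 (-0.50 to 0.05, limma adjusted p = 0.353). Without Tet2-WT replicate 1, 2 or 3 the call in Tet2-Mut was lost (limma adjusted p = 0.168, 0.153 and 0.0696), as it was without Tet2-Mut replicate 2 (0.0890). In Tet2-KO a call was gained without either Tet2-Mut clone (limma adjusted p = 0.0298 and 0.0306) and without Tet2-KO replicate 2 (0.53, limma adjusted p = 0.0400).

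Dnmt3l, the cofactor of both de novo enzymes, went the other way. It had 15496, 15289 and 16020 normalized counts in Tet2-WT, 11233 and 7714 in Tet2-Mut, and 11791 and 9823 in Tet2-KO. All 4 clones lay below all Tet2-WT libraries, and the lowest was Tet2-Mut replicate 2, the library with the highest Dnmt3a. The means were 15602 ± 377 (SD, n = 3), 9473 ± 2488 (SD, n = 2) and 10807 ± 1392 (SD, n = 2). Dnmt3l fell in Tet2-Mut by a log2 fold change of -0.74 (-1.06 to -0.43, limma adjusted p = 0.0323). In Tet2-KO its log2 fold change of -0.54 missed the threshold (-0.85 to -0.22, limma adjusted p = 0.0587). The call in Tet2-Mut was lost without Tet2-WT replicate 1, 2 or 3 (limma adjusted p = 0.165, 0.150 and 0.0940) and without Tet2-Mut replicate 2 (-0.47, 0.0520), and the miss in Tet2-KO became a call without Tet2-Mut replicate 1 or 2 (0.00354 and 0.00371). Between Tet2-KO and Tet2-Mut the difference was 0.21 (-0.14 to 0.56, limma adjusted p = 0.506), which was called at 0.48 without Tet2-Mut replicate 1 (0.0134) and changed sign to -0.06 without Tet2-Mut replicate 2.

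Maintenance rests on Uhrf1 and Dnmt1. Uhrf1, the factor that recruits Dnmt1, had 23508, 23389 and 22933 normalized counts in Tet2-WT, 18933 and 18812 in Tet2-Mut, and 19865 and 21392 in Tet2-KO. The 3 groups were ordered without overlap, with Tet2-WT highest and Tet2-Mut lowest, and the share of all genes so ordered was not counted. The means were 23277 ± 304 (SD, n = 3), 18872 ± 85.8 (SD, n = 2) and 20629 ± 1080 (SD, n = 2). Uhrf1 fell in Tet2-Mut by a log2 fold change of -0.30 (-0.43 to -0.17, limma adjusted p = 0.0328). In Tet2-KO the value was -0.18 (-0.31 to -0.045, limma adjusted p = 0.110), and between Tet2-KO and Tet2-Mut it was 0.13 (-0.02 to 0.27, limma adjusted p = 0.301). Leaving out Tet2-WT replicate 1, 2 or 3 or Tet2-Mut replicate 2 ended the call in Tet2-Mut (limma adjusted p = 0.173, 0.168, 0.0781 and 0.0802), while the log2 fold change stayed between -0.31 and -0.30.

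Dnmt1 had 22595, 21424 and 21987 normalized counts in Tet2-WT, 19630 and 19122 in Tet2-Mut, and 18329 and 20276 in Tet2-KO. The clones were all below Tet2-WT, and the Tet2-KO clones lay on both sides of the Tet2-Mut clones. The means were 22002 ± 586 (SD, n = 3), 19376 ± 359 (SD, n = 2) and 19302 ± 1376 (SD, n = 2). The log2 fold changes, -0.19 in Tet2-KO (-0.33 to -0.046, limma adjusted p = 0.115) and -0.18 in Tet2-Mut (-0.33 to -0.039, limma adjusted p = 0.149), did not pass. Between Tet2-KO and Tet2-Mut the interval of the difference ran from -0.16 to 0.15.

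**Figure D3:**
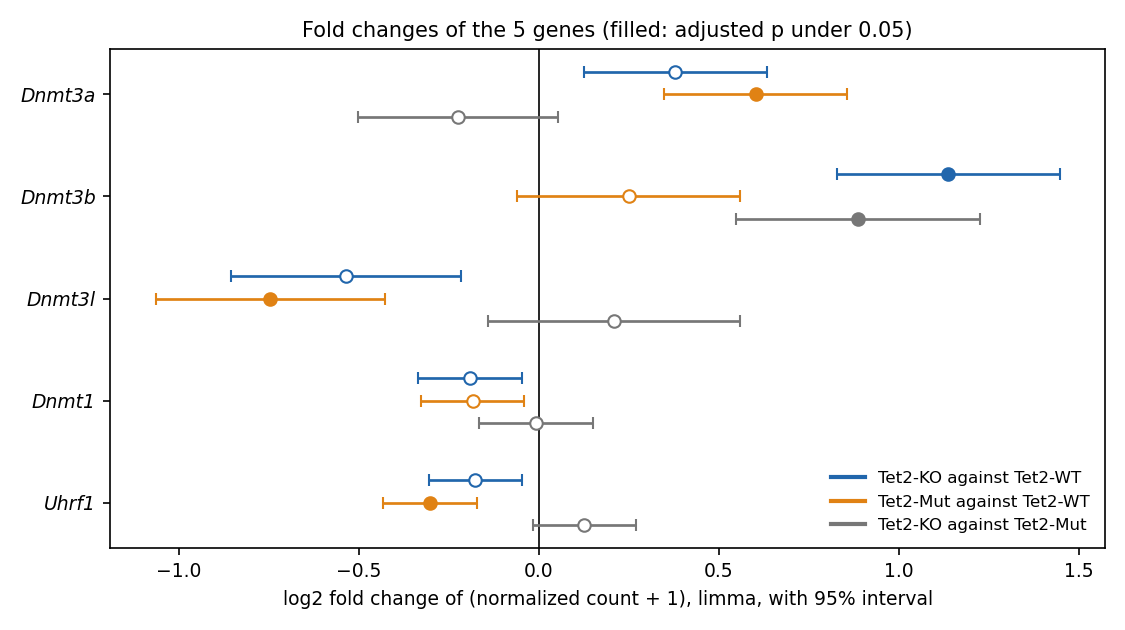
Log2 fold changes (limma, horizontal axis) of the 5 genes in 3 comparisons with 95% intervals; filled points have an adjusted p under 0.05. Filled points are Dnmt3b in Tet2-KO against Tet2-WT (1.14) and against Tet2-Mut (0.89), and Dnmt3a (0.60), Dnmt3l (-0.74) and Uhrf1 (-0.30) in Tet2-Mut against Tet2-WT.

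Each of these values rests on 7996 to 52356 reads, with a relative counting error of at most 1.12% if reads are independent and 1.58% if the mates of a pair were counted separately. The p-values rest on a spread per gene that is pooled over the ESC lines and clones of all groups. That spread is drawn towards the spread of genes with a similar mean. It is not the spread between the clones of a single genotype. In bulk RNA, fewer cells of a type and less RNA per cell cannot be told apart.

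Ratios of the genes within a library do not depend on its scaling. They are descriptions without a test, and since no transcript lengths were used they are compared only between libraries. The Dnmt3b to Dnmt3a ratio was 2.50, 2.38 and 2.22 in Tet2-WT, 2.33 and 1.47 in Tet2-Mut, and 4.21 and 3.80 in Tet2-KO. Tet2-KO clones were therefore high in this ratio, Tet2-Mut replicate 1 was within the Tet2-WT range and Tet2-Mut replicate 2 was below it. Dnmt3b made up 71.5%, 70.4% and 68.9% of the Dnmt3a plus Dnmt3b counts in Tet2-WT, 70.0% and 59.5% in Tet2-Mut, and 80.8% and 79.2% in Tet2-KO. Their sum was 29003 to 30825 in Tet2-WT, 40921 and 36818 in Tet2-Mut, and 66886 and 50144 in Tet2-KO.

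Dnmt3l per unit of that sum was 0.534, 0.508 and 0.520 in Tet2-WT, 0.274 and 0.210 in Tet2-Mut, and 0.176 and 0.196 in Tet2-KO. All 4 clones were far below Tet2-WT in this ratio, and the Tet2-KO clones were below the Tet2-Mut clones. The separation from Tet2-WT follows from the lower Dnmt3l and the higher Dnmt3a and Dnmt3b of the 4 clones, so it is not a separate result. Set against Dnmt3a alone, Dnmt3l stood at 1.67 to 1.87 in Tet2-WT, 0.913 and 0.518 in Tet2-Mut, and 0.918 and 0.940 in Tet2-KO. The Uhrf1 to Dnmt1 ratio varied little, at 1.04 to 1.09 in Tet2-WT, 0.964 and 0.984 in Tet2-Mut, and 1.08 and 1.06 in Tet2-KO.

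**Figure D4:**
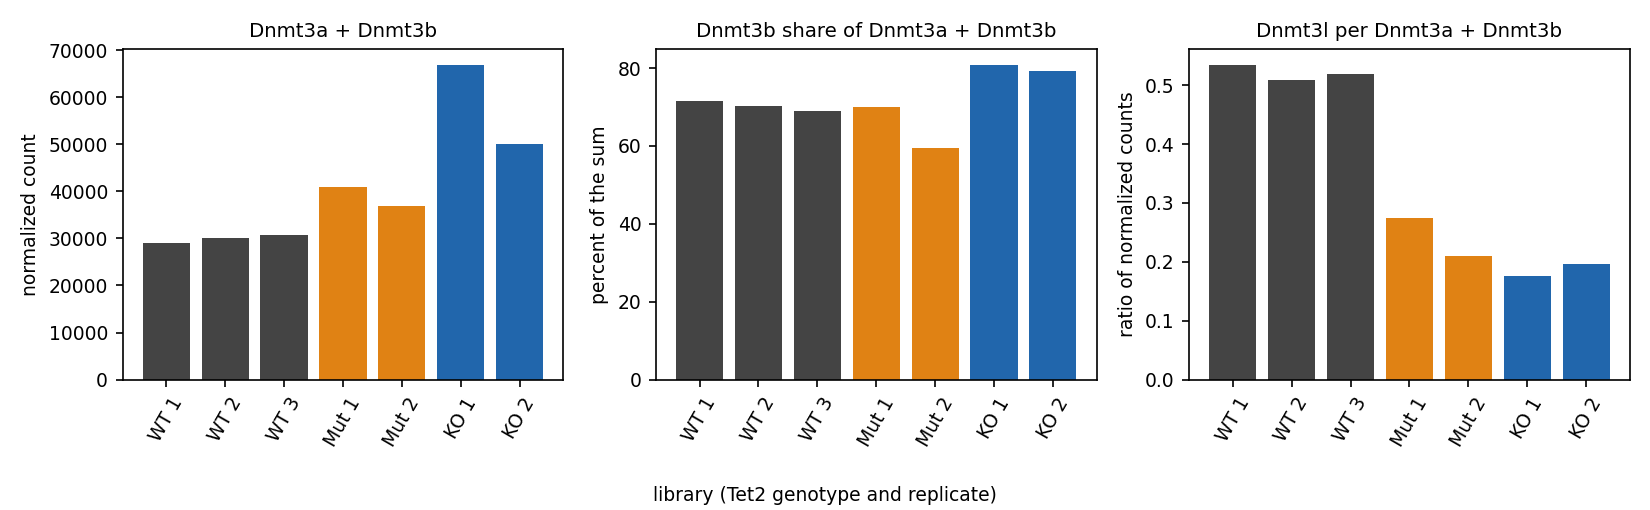
Bars give, for each of 7 libraries, the summed normalized count of Dnmt3a and Dnmt3b (left), the percent of it from Dnmt3b (middle) and the ratio of Dnmt3l to it (right); there are no error bars because each bar is 1 library. The Dnmt3l ratio is 0.508 to 0.534 in Tet2-WT and 0.176 to 0.274 in the clones.

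Chromosomal neighbours were read to see whether a difference reached past the gene. Dnmt3l (chromosome 10, 78042287 to 78063622, mm10) overlaps at its start with Aire (78030022 to 78043610, opposite strand), a transcriptional regulator known from thymic epithelium. Aire had 5265, 4599 and 3544 normalized counts in Tet2-WT, 949 and 297 in Tet2-Mut, and 889 and 1421 in Tet2-KO. Aire fell in both, by log2 fold changes of -3.05 in Tet2-Mut (limma adjusted p = 0.0145) and -1.97 in Tet2-KO (0.0294). The call in Tet2-Mut was lost without Tet2-WT replicate 1 or 2, where over all left-out libraries the value ran from -3.89 to -2.21, and that in Tet2-KO without any of the Tet2-WT libraries or Tet2-KO replicate 1 (-2.31 to -1.63 over all left-out libraries). No source used here says whether strand was counted, and reads from the overlap cannot be told apart. Icosl, on the other side of Dnmt3l, was at -0.75 and -0.69 without passing (limma adjusted p = 0.0671 and 0.0678). Beside Uhrf1 (chromosome 17, 56303337 to 56323486), Plin3 fell in Tet2-Mut by -0.39 (limma adjusted p = 0.0371), a call lost in the same 4 left-out libraries as that of Uhrf1 (-0.47 to -0.30), and Kdm4b was at -0.81 (0.0514).

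No nearest neighbour of Dnmt3b (chromosome 2, 153649411 to 153687730) passed in any comparison. Commd7 was at 0.25 and Mapre1 at 0.10 in Tet2-KO against Tet2-WT (limma adjusted p = 0.309 and 0.451). Of tested genes that start within 200 kb, 0 of 4 near Dnmt3b, 1 of 9 near Dnmt3l and 1 of 10 near Uhrf1 passed there. Near Dnmt1 2 of 13 passed and near Dnmt3a 0 of 2, against 5.91% of all genes. In Tet2-Mut against Tet2-WT 1 near Dnmt3l and 1 near Uhrf1 passed, and 0 near the others, against 3.43%. The antisense gene Dnmt3bos, whose reads cannot be told from those of Dnmt3b without strand, had 4.99 to 36.1 normalized counts over the 7 libraries. Dtnb and Pomc, beside Dnmt3a (chromosome 12, 3801559 to 3914443), did not pass either (limma adjusted p of at least 0.357). Next to Dnmt1 (chromosome 9, 20907206 to 20959888), Eif3g did not pass, and S1pr2 was lower in Tet2-KO than in Tet2-Mut by -0.45 (limma adjusted p = 0.0401), a call that was kept in 1 of the 7 left-out fits, the one without Tet2-Mut replicate 1 (-0.60 to -0.31 over all 7).

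The genes most like each one over the 7 libraries were found by Pearson correlation of log2 values among 11515 genes. The libraries share genotypes and clones, so these values describe a pattern and carry no p. Sema6a (r = 0.998), which encodes a semaphorin, Hmga2 (0.995), an architectural chromatin protein, and Lamb1 (0.994), a laminin subunit, followed Dnmt3b. The Sema6a means were 585, 818 and 3271 normalized counts in Tet2-WT, Tet2-Mut and Tet2-KO. Brix1 (0.993), a ribosome biogenesis factor, Zfp979 (0.992) and the chromatin organizer Satb1 (0.990) followed Dnmt3a. Il17re (0.9995), a cytokine receptor gene, Snrnp35 (0.986), a minor spliceosome component, and the kinase gene Camkk1 (0.984) followed Dnmt3l. Cdc42ep2 (0.998), an effector of Cdc42, the imprinted noncoding RNA H19 (0.992) and Megf6 (0.991) followed Uhrf1. The H19 means were 2872, 119 and 413 normalized counts in Tet2-WT, Tet2-Mut and Tet2-KO, a much wider span than that of Uhrf1. Paox (0.991), a polyamine oxidase gene, Acss2 (0.988), which makes acetyl-CoA from acetate, and Tmem51 (0.988) followed Dnmt1.

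Partners of maintenance methylation came next. Of 13, among them Pcna, the replication clamp, Usp7, a deubiquitinase that binds Dnmt1, and the remodeler Hells, 0 passed in any of the 3 comparisons by limma over all 7 libraries, by edgeR and by DESeq2, with 4, 1 and 1 at an unadjusted limma p under 0.05. Their median log2 fold changes were -0.05 in Tet2-KO and 0.05 in Tet2-Mut, against -0.002 and 0.009 over all genes. The shares of all genes with an unadjusted limma p under 0.05 were 23.2%, 21.1% and 20.2%. Lig1, the ligase that joins Okazaki fragments, was at -0.19 and -0.21, near the values of Dnmt1, and did not pass over all libraries. By limma Lig1 passed in Tet2-Mut with quantile normalization and without Tet2-Mut replicate 1. Ehmt2, a histone H3 lysine 9 methyltransferase gene, was at -0.25 in Tet2-KO and passed there without either Tet2-Mut clone and with only the 2 groups fitted, and in Tet2-KO against Tet2-Mut without Tet2-Mut replicate 1. The range over the list was -0.25 to 0.19 in Tet2-KO and -0.21 to 0.13 in Tet2-Mut.

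Of 17 partners and antagonists of de novo methylation, 0 passed against Tet2-WT in either genotype by limma. At an unadjusted limma p under 0.05 there were 4 in each, against 23.2% of all genes in Tet2-KO and 21.1% in Tet2-Mut. edgeR called 0 in Tet2-KO and 1 in Tet2-Mut, and DESeq2 called 1 and 3. By limma with 1 library left out, 0 to 2 rose and 0 to 1 fell in each genotype. Prdm14, known in mouse ESCs to hold down Dnmt3b and Dnmt3l, had 1123, 1182 and 1125 normalized counts in Tet2-WT, 821 and 707 in Tet2-Mut, and 566 and 913 in Tet2-KO. All 4 clones were below Tet2-WT, as was so for 8.91% of all genes. The log2 fold changes of Prdm14, -0.67 in Tet2-KO and -0.58 in Tet2-Mut, did not pass by limma. By limma it passed in Tet2-KO without Tet2-Mut replicate 1 or 2 or Tet2-KO replicate 2, and in Tet2-Mut without either Tet2-KO clone, and DESeq2 called it in both genotypes. Zfp57, which keeps methylation at imprinted regions, was at 0.46 in Tet2-Mut, a value that missed the threshold by limma, passed by edgeR and DESeq2, and passed by limma with upper quartile scaling or without Tet2-Mut replicate 1. Both of these were named after their values were seen. A link of Prdm14 to Dnmt3b, or to Dnmt3l, which was itself lower in all 4 clones, was not tested. Nsd3, a histone H3 lysine 36 methyltransferase gene, was lower in Tet2-KO than in Tet2-Mut by -0.53 (limma adjusted p = 0.0115), a call lost without Tet2-KO replicate 1 (-0.60 to -0.45 over all left-out libraries).

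Among 8 methyl-CpG readers, Zbtb33 (Kaiso) rose in Tet2-KO by 0.43 (limma adjusted p = 0.0476) and Zbtb38 fell in Tet2-Mut by -0.42 (0.0448, but 0.0510 by edgeR), and none passed between the genotypes, where 1 had an unadjusted p under 0.05. Of 10 demethylation genes, Tdg, which excises oxidized methylcytosine, rose in Tet2-KO by 0.34 (limma adjusted p = 0.0420). Tet1 was lower in Tet2-KO than in Tet2-Mut by -0.57 (0.00787) and kept that call with each library left out. Gadd45a rose in Tet2-Mut by 0.55 (0.0329) and Gadd45b fell there by -0.87 (0.0227), while Gadd45g was higher in Tet2-KO than in Tet2-Mut by 1.93 (0.0206). Of 14 tested genes of the S-adenosylmethionine cycle, which makes the methyl donor, Mat2a, the synthetase, rose in Tet2-Mut by 0.39 (0.0493), and the spermidine synthase gene Srm rose in Tet2-KO by 0.34 (0.0296). Each of the calls against Tet2-WT in this paragraph was lost without Tet2-WT replicate 1 or 2 and, apart from that of Gadd45b, without Tet2-WT replicate 3. Those in Tet2-KO were also lost without Tet2-KO replicate 1 (that of Srm without replicate 2 too), and those in Tet2-Mut without Tet2-Mut replicate 2. Over all left-out libraries the log2 fold changes ran from 0.32 to 0.53 for Zbtb33, -0.47 to -0.37 for Zbtb38, 0.25 to 0.43 for Tdg, 0.36 to 0.73 for Gadd45a and -0.97 to -0.77 for Gadd45b. They ran from 0.32 to 0.44 for Mat2a and 0.28 to 0.39 for Srm. The call of Gadd45g was lost without either Tet2-KO clone (1.27 to 2.59).

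Genes of DNA replication, a process that Dnmt1 and Uhrf1 accompany, were read beside them. Of 34, 0 rose and 3 fell in Tet2-KO against Tet2-WT (Gins2 -0.35, Gins4 -0.33, Pola1 -0.27), with 29 of 34 below 0 and a median of -0.12. Over all genes 2.91% fell there, and 8731 of 17338 were below 0. In Tet2-Mut 1 fell, the transcription factor E2f1 (-0.58, limma adjusted p = 0.0492, edgeR adjusted p = 0.0550), and 20 were below 0, with a median of -0.07. The 1 that fell is 2.94% of the list, near the 1.98% of all genes that fell in Tet2-Mut, where 8407 of 17338 were below 0. Between the genotypes 5 were lower in Tet2-KO (over all genes 3.55%), among them Mcm5 (-0.50) and Gins4 (-0.55), which kept their calls with each library left out. The calls of Gins2, Gins4 and Pola1 in Tet2-KO were lost without any 1 Tet2-WT library or Tet2-KO replicate 1. Those of Gins2 and Pola1 were also lost without Tet2-KO replicate 2. That of E2f1 in Tet2-Mut was lost without any 1 Tet2-WT library or Tet2-Mut replicate 2 (-0.70 to -0.45 over all left-out libraries). The counts with 1 library left out ran from 0 to 6 lower genes in Tet2-KO and from 0 to 3 in Tet2-Mut, and from 2 to 6 between them.

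Germline genes whose promoters are known from other work to be silenced by methylation were read next. Their methylation in these cells was not analysed here. Some of them were clearly counted in Tet2-WT, such as Ddx4 and Piwil2, with means of 1502 and 1361 normalized counts. Of 24, 22 were tested. In Tet2-KO against Tet2-WT 8 fell and 0 rose (median -0.61), in Tet2-Mut 3 fell and 0 rose (median -0.03), and 5 were lower in Tet2-KO than in Tet2-Mut. Over all genes 2.91% fell in Tet2-KO, 1.98% fell in Tet2-Mut and 3.55% were lower in Tet2-KO than in Tet2-Mut. Stag3, a meiotic cohesin subunit gene, had 3262, 2951 and 2881 normalized counts in Tet2-WT, 2487 and 2352 in Tet2-Mut, and 1796 and 1674 in Tet2-KO. It fell in Tet2-KO by -0.80 (limma adjusted p = 0.00522), a call kept with each library left out. Fkbp6, needed for the piRNA pathway, had 146, 113 and 163 normalized counts in Tet2-WT, 26.8 and 19.3 in Tet2-Mut, and 8.26 and 26.9 in Tet2-KO. It fell in both, by -3.13 in Tet2-KO (0.0114) and -2.56 in Tet2-Mut (0.0313), and both calls were lost without any of the 3 Tet2-WT libraries, the second also without Tet2-Mut replicate 2 (-3.92 to -2.33 and -2.79 to -2.34 over all left-out libraries). Tuba3a, a testis tubulin gene, fell in Tet2-KO by -1.24 (0.00736) and in Tet2-Mut by -1.19 (0.0141), calls lost without Tet2-WT replicate 1 or 3 and, in Tet2-Mut, also without Tet2-WT replicate 2. Smc1b, a meiotic cohesin gene, fell in Tet2-Mut by -2.41 (0.0262) and Tex11, a meiosis gene, in Tet2-KO by -1.28 (0.0265). Both of these calls were lost without any 1 Tet2-WT library, and without Tet2-Mut replicate 2 or Tet2-KO replicate 1 (-3.13 to -1.69 and -1.68 to -0.89 over all left-out libraries). Piwil2 was lower in Tet2-KO than in Tet2-Mut by -1.35 (0.00603), also kept throughout. With 1 library left out, 1 to 13 genes of the list fell in Tet2-KO and 0 to 6 in Tet2-Mut.

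**Figure D5:**
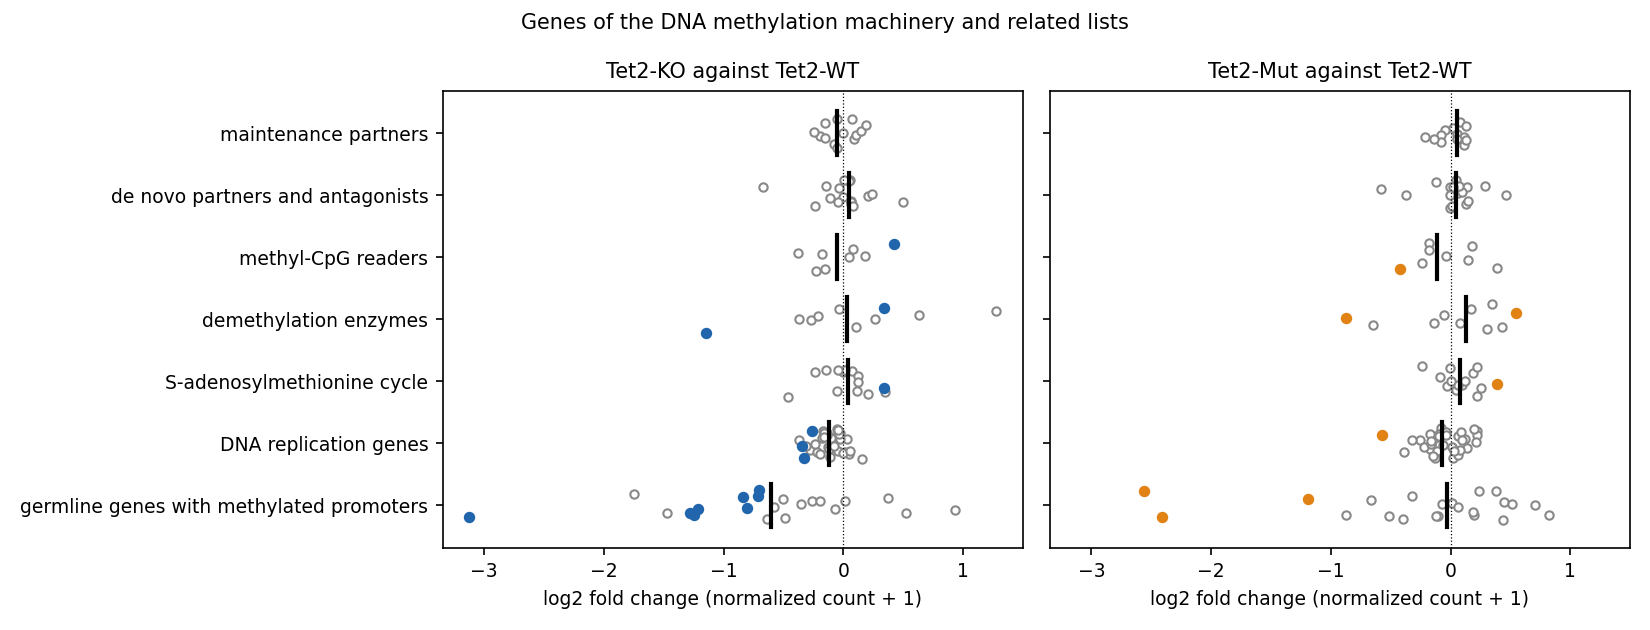
Log2 fold changes of the genes of 7 lists in Tet2-KO (left) and Tet2-Mut (right) against Tet2-WT; each point is a gene, filled where the adjusted p is under 0.05, vertical spread within a list is only to separate points, and black lines are medians. The germline median is -0.61 in Tet2-KO and -0.03 in Tet2-Mut, and the maintenance partners have no filled point.

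The Dnmt3b difference came with differences in cell state markers and feeder markers. The 10 formative markers are genes of the state between naive and primed pluripotency, and the list holds Dnmt3a and Dnmt3b themselves. Of these 10, 6 rose in Tet2-KO, 1 rose in Tet2-Mut and 5 were higher in Tet2-KO than in Tet2-Mut. The shares over all genes were 3.0%, 1.44% and 2.64%. Dnmt3b itself was among the 6 and among the 5, and the 1 in Tet2-Mut was Dnmt3a. Fgf5, Otx2 and Lef1 did not pass in Tet2-KO against Tet2-WT (limma adjusted p = 0.0659, 0.385 and 0.853), nor did Dnmt3a. The Tet2-Mut clones were far apart on these 3, at 227 and 17.4 normalized counts for Fgf5, 2596 and 305 for Otx2, and 607 and 74.3 for Lef1. Sox3 had 143, 115 and 135 normalized counts in Tet2-WT, 284 and 219 in Tet2-Mut, and 997 and 526 in Tet2-KO. It rose in Tet2-KO by 2.47 (limma adjusted p = 0.00522), and Sall2 rose by 1.92 (0.00618), both kept with each library left out. Pou3f1, at 6200 and 4339 in Tet2-KO and 1409 to 2401 in the 5 other libraries, was higher in Tet2-KO than in Tet2-Mut by 1.495 (0.00802), a call kept throughout. Its rise in Tet2-KO against Tet2-WT (1.43, limma adjusted p = 0.0107) was lost without any 1 Tet2-WT library or Tet2-KO replicate 1. The rises of Zic2 (1.14) and Foxd3 (0.74) were lost in the same fits, and that of Zic2 also without Tet2-KO replicate 2. Fgf5 was higher in Tet2-KO than in Tet2-Mut by 3.85 (0.0384), a call lost without any Tet2-WT library or either Tet2-KO clone (2.03 to 5.66) and not made by edgeR (0.0559) or DESeq2 (0.0648). With 1 library left out, 3 to 9 of the list rose in Tet2-KO and 0 to 3 in Tet2-Mut, and 2 to 8 were higher in Tet2-KO than in Tet2-Mut. Of 12 ESC markers, Tbx3 (-0.87) and Tdgf1 (-0.37) fell in Tet2-KO, and Tbx3 (-1.17) and Nanog (-0.37) fell in Tet2-Mut, and each of these 4 calls ended without Tet2-WT replicate 1 or 2. edgeR did not call Nanog (adjusted p = 0.0550). Over all genes 2.91% fell in Tet2-KO and 1.98% in Tet2-Mut.

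Of the 18 fibroblast markers, 6 rose and 0 fell in Tet2-KO against Tet2-WT (17 of 18 above 0, median 1.08). In Tet2-Mut 0 passed by limma, with 3 at an unadjusted p under 0.05, and 5 were higher in Tet2-KO than in Tet2-Mut. Over all genes 3.0% rose in Tet2-KO, where 8607 of 17338 were above 0. In Tet2-Mut 21.1% had an unadjusted limma p under 0.05, and 2.64% were higher in Tet2-KO than in Tet2-Mut. Col1a1 had 693 to 782 normalized counts in Tet2-WT, 1137 and 689 in Tet2-Mut, and 2123 and 1444 in Tet2-KO. For Col1a1 the order of libraries was thus the same at the top as for Dnmt3b, with Tet2-KO replicate 1 highest and Tet2-KO replicate 2 next. Not all markers had this order. Tet2-Mut replicate 1 was second for Col3a1, Col6a2, Fn1 and Thy1. Postn was highest in Tet2-KO replicate 2, and Twist1 and Pdgfra were highest in Tet2-Mut replicate 2. With 1 library left out, 0 to 11 of the markers rose in Tet2-KO, and none of the 6 calls was kept in every such fit. That of Tagln (2.27) was lost only without Tet2-WT replicate 3, that of the collagen gene Col5a1 (1.62) without Tet2-KO replicate 1 or without replicate 1 or 3 of Tet2-WT, and that of Col1a1 (1.25) without any Tet2-WT library or Tet2-KO replicate 1. Between the genotypes, Vim (1.38), Col5a1 (1.69) and Tagln (1.80) were higher in Tet2-KO (limma adjusted p = 0.00714, 0.00790 and 0.0144), calls kept with each library left out. The part of feeder cells or of cell state in the Dnmt3b difference was not tested.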

How the data were processed

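For 7 RNA-seq libraries the authors deposited a linear signal, the reads per gene scaled by DESeq2 size factors, called normalized count here. The submitters' processing notes name mm10 as the build, and DESeq2, featureCounts, STAR 2.7.3a and Trim Galore 0.6.5 among the tools. Annotation and strand use are not given in the sources used here. Every value (100%) was a whole multiple of 1 read within 0.01 reads, and in Tet2-WT replicate 1 the smallest value was 2 such steps. The smallest sum over the 7 libraries was 71 reads, and mates of a pair may be counted separately.

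Differences were tested with R 4.3.3 and limma 3.58.1, after adding 1 and taking log2, in the 17338 genes that reached 10 normalized counts in at least 2 libraries, in 1 model of group means with a prior that follows the mean. Residual degrees of freedom were 4, prior 5.03, and p-values were Benjamini-Hochberg adjusted over all genes at 0.05. Tet2-WT libraries lay closer together (chi-square per degree of freedom 7.13 to 13.2) than clones of Tet2-Mut (44.0) or Tet2-KO (33.3), and they share 1 estimate of the spread. edgeR 4.0.16 and DESeq2 1.42.0 were alternatives on recovered reads. The steps were tested on simulated data.

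Members and lists were chosen with earlier results of these data known. Named genes were drawn from the 5 genes, Tet2, for each list and comparison the called genes of smallest p (at most 4), 3 genes most like each member (mean of at least 100), and nearest or overlapping genes. Not every gene that the rule takes is named. Ranks, motifs, Ehmt2, Lig1, Pcna, Usp7, Hells, Zic2, Foxd3 and the genes said to be named after their values were seen fall outside this rule. RefSeq symbols matched 92.8% of tested genes.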

Additional observations from a re-analysis of the deposited data

How the results depend on the processing

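For the 5 genes in 3 comparisons, 285 values under 19 other settings were computed. Of these, 21 were no longer called, 10 were newly called, 5 changed sign and the rest kept direction and side of the threshold. The sign changes were all in Tet2-KO against Tet2-Mut, where Dnmt1 was near 0. They were Dnmt1 at 3e-04 with upper quartile scaling, 0.0451 with quantile normalization, 0.0117 without Tet2-Mut replicate 1 and 0.0656 without Tet2-KO replicate 1, and Dnmt3l at -0.0617 without Tet2-Mut replicate 2. Leaving out 1 library gave -0.08 to 0.0656 for Dnmt1 and -0.0617 to 0.4804 for Dnmt3l there. The cause was not tested. Other pseudocounts and filters, both scalings, a robust prior and edgeR changed no call of the 5 genes.

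The 3 comparisons are given in the order Tet2-KO against Tet2-WT, Tet2-Mut against Tet2-WT and Tet2-KO against Tet2-Mut, with 1025, 594 and 1074 genes and 1, 3 and 1 of the 5 members called. With only the 2 groups compared these were 2153, 901 and 0 genes (2351 at an unadjusted p under 0.05 in the last, where edgeR called 1054 with all libraries) and 3, 3 and 0 members. With no mean trend they were 19, 0 and 10 genes (3018 at an unadjusted p in the second, where edgeR called 582) and 0 members in each. DESeq2 called 1992, 1555 and 1808 genes and 3, 3 and 1 members. Leaving out 1 library gave 85 to 2158, 6 to 2198 and 530 to 2679 genes, and 1 to 3, 0 to 3 and 1 to 2 members. In a fit without 1 clone, the lone clone is assumed to vary like the other groups.

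With the replicate number as a block, 15, 7 and 467 genes and 1, 0 and 1 members were called. Deviations of same-numbered libraries from their group mean correlated at 0.209 and -0.065 (Tet2-WT with Tet2-Mut), -0.165 and 0.031 (Tet2-WT with Tet2-KO) and -0.178 (both clone genotypes). In a group of 2 clones the deviations mirror each other, so the last value is the same for both numbers. These few values do not settle whether the number pairs libraries, and a shared batch was not tested. Tet2-WT replicate 3 adds nothing to the fit with the block. What limits the precision of the 5 genes was not tested. Among listed genes called over all libraries, edgeR did not call Dpep3 in Tet2-KO against Tet2-WT (adjusted p = 0.0529), Zbtb38, E2f1 and Nanog in Tet2-Mut against Tet2-WT, or Fgf5 between the genotypes.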
